A study of Mus musculus with 10 samples.

Results

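The genes described here encode nuclear subunits of the mitochondrial respiratory chain and ATP synthase. They were chosen by symbol alone, as every listed gene beginning Nduf with a subunit letter and number, Sdh with one of the letters a to d, Uqcr, Cox with a number from 4 to 8, or Atp5, which gave 85 of 23337 listed genes. By complex these were 35 of complex I, 4 of complex II, 8 of complex III, 20 of complex IV and 15 of complex V. The remaining 3, Cox4nb, Atp5s and Atp5sl, carry matching symbols but are not subunits of these complexes, and RefSeq lists them under the current symbols Emc8, Dmac2l and Dmac2.

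The study deleted E0, an intronic enhancer of the titin gene Ttn, and collected bulk RNA-Seq from the left ventricle (LV) and skeletal muscle (SkM) of the same mice. WT mice (n = 2) carried no deletion, and E0del/+ mice (n = 3) carried it in the heterozygous state, so that a Ttn allele with its enhancer was kept. All were C57BL/6/129SvEv hybrids, no treatment is listed, and their age is not given in the labels used here. Each of the 10 libraries was 1 tissue of 1 mouse, with 11010021 to 17484873 counts over genes, and the batch label equals the replicate number.

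Complexes I to IV pass electrons from NADH and succinate to oxygen and, except for complex II, move protons out of the matrix, and complex V uses the proton gradient to make ATP. Heart muscle works without pause and is among the tissues richest in mitochondria, while fast skeletal muscle relies more on glycolysis. Several complex IV subunits exist as a muscle form, made in heart and skeletal muscle, and a ubiquitous form. The subunits encoded by mitochondrial DNA were not analysed here, since 0 listed genes lay on the mitochondrial chromosome.

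Ttn, which encodes the giant sarcomere protein titin, was at 7959 and 9344 in WT LV and 7737, 5560.1 and 6597 in E0del/+ LV, in CPM, which are counts scaled to the total gene counts of the library. In SkM it was at 24205 and 15856 in WT SkM and 20092, 18854 and 13585 in E0del/+ SkM. The genotypes overlapped in SkM, whereas in LV both WT libraries lay above the E0del/+ libraries, WT replicate 1 (7959) only slightly above E0del/+ replicate 1 (7737). WT LV replicate 2 (9344) also held skeletal muscle transcripts, as given below, and Ttn was higher in every SkM library than in any LV library. The part of these transcripts in the Ttn values was not tested. The E0del/+ against WT log2 fold changes of Ttn did not pass, at -0.45 ± 0.27 (SE), adjusted p = 0.997 in LV and -0.17 ± 0.24 (SE), adjusted p = 1.00 in SkM (edgeR quasi-likelihood test, Benjamini-Hochberg). Because E0 is intronic and heterozygous, this level checks the labels only weakly. The paper reports lower expression from the Ttn allele with the deletion in E0del/+ mice of the same animal numbers, in LV and SkM. It also reports significantly lower total Ttn in E0del/+ LV by bulk RNA-Seq, with more mice per genotype than here.

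Several libraries stood apart. The summed CPM of 10 fast-fibre genes, led by Myh4, was 134 and 28328 in WT LV and 149, 141 and 143 in E0del/+ LV, so WT LV replicate 2 held skeletal muscle transcripts at a level no other LV library reached, beside 117267 and 127510.2 in WT SkM and 112988, 120275 and 124178 in E0del/+ SkM. The 10 ventricle genes, led by Myh6, summed to 95205 and 70951 in WT LV and 99399, 90262 and 103682 in E0del/+ LV, lowest in that same library. The 4 Y-linked genes summed to 0.461 and 222 in WT LV and 0.586, 3.27 and 211 in E0del/+ LV, and to 21.6 and 158 in WT SkM and 0.861, 0.800 and 177 in E0del/+ SkM. Replicate 2 of WT and replicate 3 of E0del/+ were thus high in both tissues, and WT SkM replicate 1 was intermediate although the LV library of that mouse was near 0 and although Xist, made from the inactive X chromosome, was at 397 CPM in it. These marker levels were read after the data were seen, and their part in the results below was not tested.

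A further pattern followed transcript length. Each member's CPM in a library was set against its mean in the other libraries of that tissue. E0del/+ LV replicate 2 had the highest CPM of the LV libraries for 72 of 81 members, with a median log2 ratio of 0.66 for the 41 members of at most 681 bp summed exon length and 0.33 for the 40 longer ones. WT LV replicate 2 was lowest for 76 of 81, with medians of -0.49 and -0.34. These ratios are on CPM. By the trimmed mean of M values (TMM), E0del/+ LV replicate 2 had the largest scaling factor of the LV libraries (1.4152). WT LV replicate 2 had the smallest (1.1703). On TMM sizes the ratios thus lie lower in the former and higher in the latter, and their medians on that scale were not taken. In SkM, WT replicate 2 was highest for 69 of 81. Across members, which are not independent replicates, Spearman's rho between the ratio and length was -0.71 in E0del/+ LV replicate 2 and -0.32 in WT SkM replicate 2, beside -0.21 and -0.34 over 12364 genes. It was above 0 in the other libraries, at 0.49 and 0.51 in WT LV, 0.47 and 0.60 in E0del/+ LV replicates 1 and 3, 0.00313 in WT SkM replicate 1 and 0.15, 0.34 and 0.16 in E0del/+ SkM. Over all genes rho was 0.197 and 0.114, 0.0719 and -0.0236, 0.174, and 0.218, 0.167 and -0.0766 in that order. E0del/+ LV replicate 2 and WT SkM replicate 2 are in the means against which the other libraries of their tissue were set. Values above 0 there are thus not independent of those 2 libraries.

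**Figure D1:**
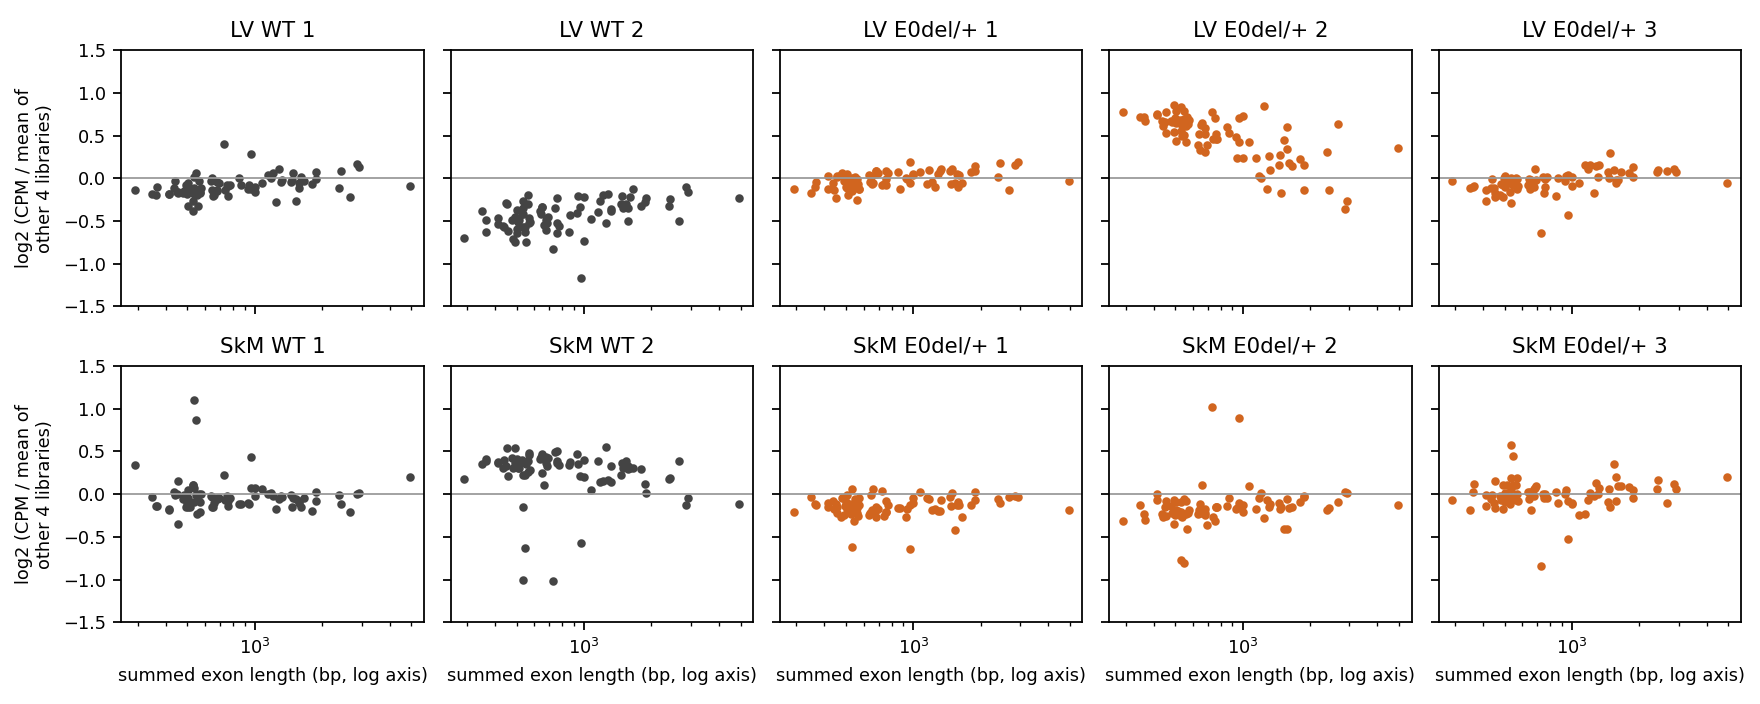
Each point is a member, placed by its summed exon length in bp (log axis) and by the log2 ratio of its CPM in that library to its mean CPM in the other libraries of the tissue (1 panel a library, WT dark and E0del/+ orange). In E0del/+ LV replicate 2 short members lie high, with a median of 0.66, and in WT LV replicate 2 most members lie below 0.

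The first comparison asked how the chain's genes differ between LV and SkM of the same mouse. Summed over all members, CPM was 32894 and 27959 in WT LV and 34299, 37973 and 33795 in E0del/+ LV, and 14688 and 17287 in WT SkM and 14276, 14327 and 15581 in E0del/+ SkM. On this scale every LV library was above every SkM library, as in 70 of 81 members and 52.1% of all genes tested. As a share of all gene counts this was 3.34% ± 0.360 (SD, n = 5) in LV and 1.52% ± 0.126 (SD, n = 5) in SkM, and the 95% Wilson interval of a single library, which covers counting error only, ran for example from 2.786% to 2.806% in WT LV replicate 2. The LV over SkM ratio within a mouse was 2.24 and 1.62 in WT and 2.40, 2.65 and 2.17 in E0del/+ mice, lowest in the mouse whose LV library held skeletal muscle transcripts. In bulk samples, fewer cells of a type and less RNA per cell cannot be told apart.

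By complex, the ratio of summed CPM within a mouse averaged 2.05 ± 0.423 (SD, n = 5 mice) for complex I and 1.99 ± 0.154 for complex II. It was 2.26 ± 0.374 for complex III, 2.59 ± 0.868 for complex IV and 2.30 ± 0.367 for complex V. The complex IV ratio ran from 1.51 to 3.93, the widest range of the 5, lowest in WT mouse 2 and highest in E0del/+ mouse 2. The ratio rests on the scale. With effective library sizes from the trimmed mean of M values (TMM), the ratio over all members was 1.57 and 0.980 in WT and 1.63, 1.40 and 1.43 in E0del/+ mice, with a mean of 1.40 ± 0.255 (SD, n = 5). In WT mouse 2 it thus turned below 1, as it did for complex I (0.872) and complex IV (0.916), and in E0del/+ mouse 2 for complex II (0.980). On TMM sizes every LV library was above every SkM library in 21 of 81 members, beside 26.5% of all genes.

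**Figure D2:**
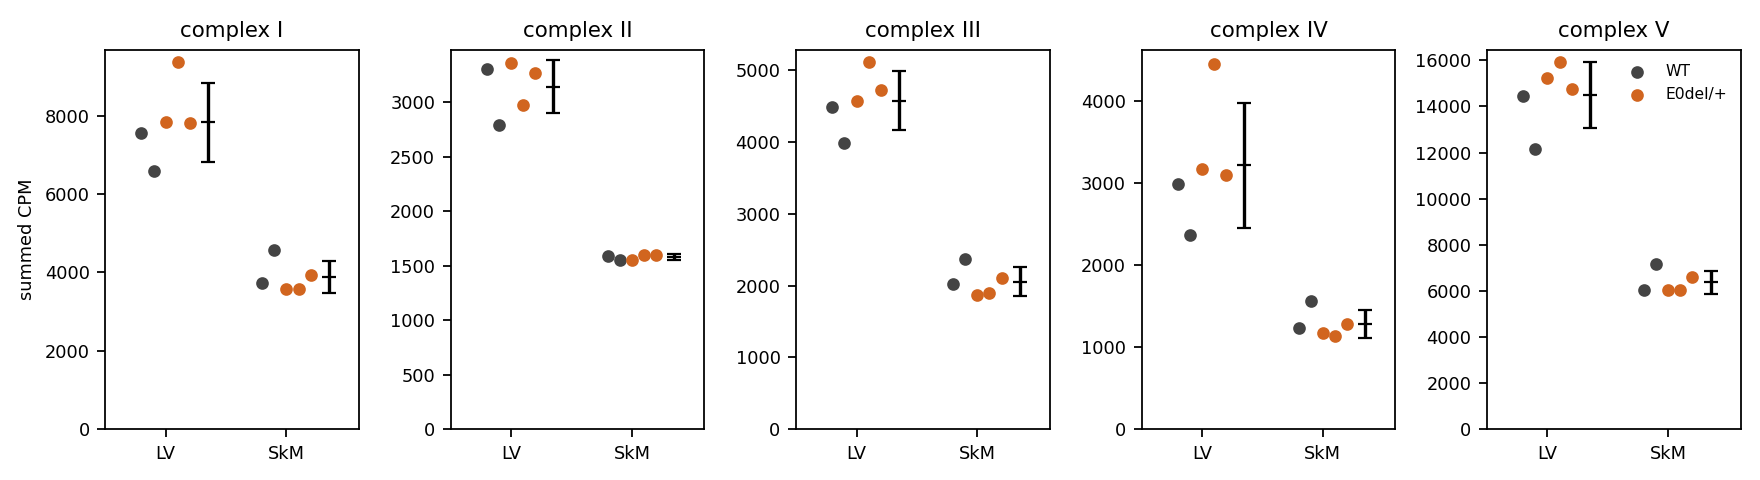
Points are the summed CPM of the members of each complex in each library (WT dark, E0del/+ orange), with the mean ± SD of the 5 libraries of a tissue beside them and axes starting at 0. On this scale, on which 52.1% of all genes do the same, every LV library lies above every SkM library in all 5 complexes, whereas on TMM sizes complexes I and IV turn lower in LV in WT mouse 2 and complex II in E0del/+ mouse 2.

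In edgeR with TMM scaling and mouse as a block, 36 of the 81 members tested passed an adjusted p of 0.05 (quasi-likelihood test, Benjamini-Hochberg over all genes) as higher in LV, where 32.1% of all 13283 genes tested were called higher in LV. DESeq2 called 42 members higher in LV, against 31.6% of all genes. 0 members were called lower in LV with edgeR or with DESeq2, where edgeR called 30.0% of all genes lower in LV. At an unadjusted p under 0.05 the edgeR counts were 41 members higher and 0 lower, beside 4525 and 4271 of all 13283 genes. The median log2 fold change was 0.41 over members and 0.02 over all genes. Scaling to total gene counts moved the median of all genes to 0.68 and that of the members to 1.07, and called 79 members higher, where 59.3% of all genes were called higher. Relative to the median of all genes the members lay 0.39 higher on either scale, and 65 of 81 lay above that median. Without WT mouse 2, whose LV library held fast-fibre transcripts, 58 members were called higher, against 31.5% of all genes, and with that LV library alone left out and no mouse term 48 were, against 33.6% of all genes.

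Without E0del/+ mouse 1 the count was 20, where 28.2% of all genes were called higher, without WT mouse 1 it was 21 (28.8%), without E0del/+ mouse 2 it was 33 (30.2%) and without E0del/+ mouse 3 it was 22 (28.6%). Of the 36 members, 19 (52.8%) were called in each of the 5 fits that left out a mouse, beside 79.7% of the 4269 genes called higher. With all mice kept, 32.1% of all genes were called higher in LV. By complex, 13 of 34 tested members of complex I were called higher, 1 of 4 of complex II and 4 of 8 of complex III. In complexes IV and V, 12 of 17 and 6 of 15 were called higher. The median log2 fold changes of complexes I to V were 0.27, 0.28, 0.46, 0.70 and 0.48 in that order. Without WT mouse 2 the counts were 19, 2, 7, 17 and 13, against 31.5% of all genes. With total gene counts they were 33, 4, 8, 17 and 14, against 59.3% of all genes. The 3 symbol matches that are not subunits had 0 calls in edgeR, 0 at an unadjusted p under 0.05, and a median of 0.02, and with total counts all 3 were called higher, with a median of 0.68.

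**Figure D3:**
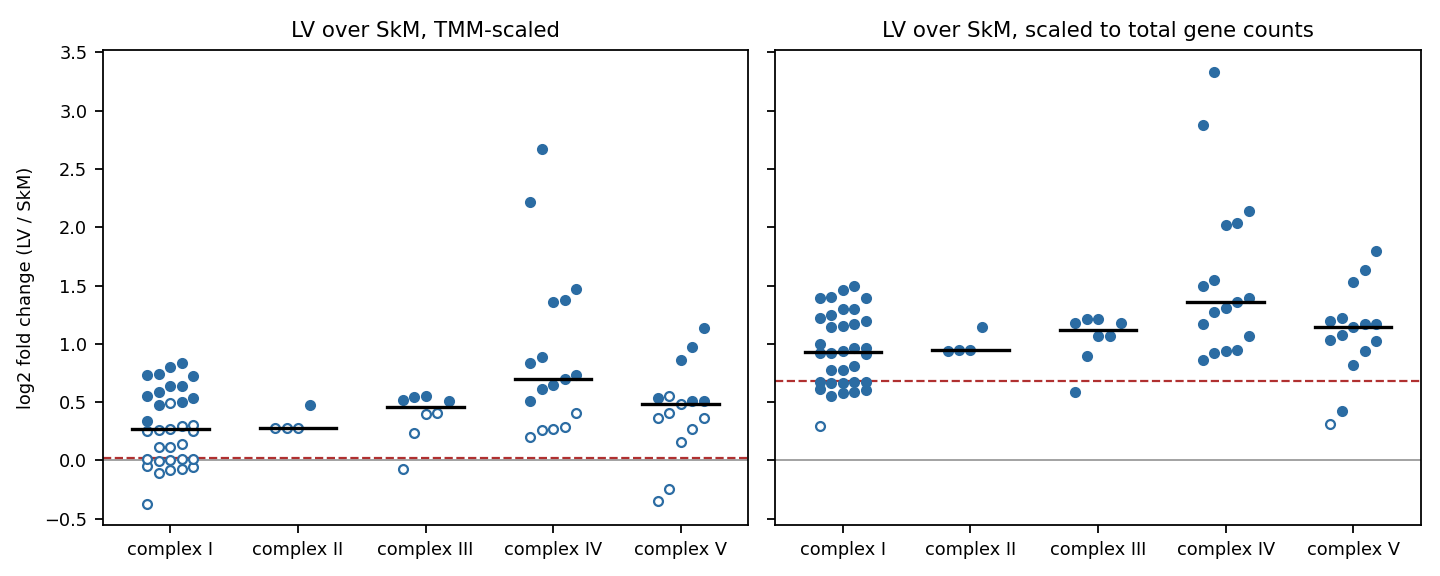
Each point is a member, with its log2 fold change of LV over SkM from edgeR with mouse as a block, scaled by TMM (left) or to total gene counts (right). Filled points passed an adjusted p of 0.05, black bars are medians of a complex, and the dashed line is the median of all genes tested, 0.02 on the left and 0.68 on the right.

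Complex I takes electrons from NADH. Per length, in the deposited values per length and library size (RPKM), Ndufs7, a core subunit of the arm that hands electrons to ubiquinone, averaged 723 ± 119 RPKM (SD, n = 5) in LV and 370.4 ± 51.3 in SkM. It did not pass the test for LV against SkM (log2 fold change 0.30 ± 0.16, SE).

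The complex I member with the largest fold change was Ndufv3, an accessory subunit of the module that oxidises NADH, at 82.4 and 66.0 in WT LV and 82.7, 120.3 and 86.8 in E0del/+ LV in CPM. In SkM it was at 29.0 and 36.8 in WT SkM and 29.2, 24.4 and 34.3 in E0del/+ SkM. All LV libraries exceeded all SkM libraries, with an edgeR quasi-likelihood log2 fold change of 0.83 ± 0.17 (SE), adjusted p = 0.00379. At the other end, Ndufs4, another accessory subunit near the NADH site, was at 59.8 and 58.6 in WT LV and 67.6, 88.5 and 73.5 in E0del/+ LV, and at 55.4 and 70.7 in WT SkM and 45.1, 45.4 and 69.5 in E0del/+ SkM. Its LV and SkM ranges overlapped, and the TMM log2 fold change of -0.37 ± 0.16 (SE), adjusted p = 0.0801 (edgeR) turned to 0.29 when scaled to total gene counts.

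Complex II oxidises succinate and is also an enzyme of the citric acid cycle. Sdhb, its iron-sulfur subunit, was at 717 and 564 in WT LV and 772, 928 and 717 in E0del/+ LV in CPM, and at 342 and 339.7 in WT SkM and 337, 350.2 and 288 in E0del/+ SkM. In CPM, LV exceeded SkM in every mouse, and Sdhb was of the 4 members the single one to pass the TMM test (edgeR log2 fold change 0.48 ± 0.15, adjusted p = 0.0269, SE). The call was lost without E0del/+ mouse 1, WT mouse 1 or E0del/+ mouse 3, and without WT mouse 2 the complex had 2 called members. Sdha, the flavoprotein that holds the succinate site, was at 1991 and 1716 in WT LV and 1979, 1481 and 1927 in E0del/+ LV, and at 945 and 882 in WT SkM and 933, 957 and 1005 in E0del/+ SkM. It was lowest in E0del/+ LV replicate 2, the library in which short members were high, and its log2 fold change was 0.27 ± 0.20 (SE), adjusted p = 0.253 (edgeR). The membrane anchors Sdhc and Sdhd had log2 fold changes of 0.28 ± 0.14 (SE) and 0.28 ± 0.14 (SE) and did not pass.

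Complex III passes electrons from ubiquinol to cytochrome c. Uqcrc1, a core protein of its matrix side, was the complex's most abundant member per length, with 1439 ± 88.2 RPKM (SD, n = 5) in LV and 625 ± 77.8 in SkM, followed by the Rieske iron-sulfur protein gene Uqcrfs1 with 489 ± 60.2 and 234 ± 27.3. In edgeR, Uqcrc1 rose in LV with a log2 fold change of 0.55 ± 0.19 (SE), adjusted p = 0.0348, while Uqcrfs1, at 0.40 ± 0.17 (SE), adjusted p = 0.0694, did not pass. The Uqcrc1 call was lost without E0del/+ mouse 1, WT mouse 1 or E0del/+ mouse 3. Uqcr11, a small membrane subunit, had the largest change of the complex. Its CPM was 199 and 154 in WT LV and 206, 303 and 199 in E0del/+ LV, and 90.8 and 106 in WT SkM and 86.0, 78.8 and 87.1 in E0del/+ SkM, with LV above SkM throughout in CPM, although on TMM sizes WT LV replicate 2 lay below WT SkM replicate 2. Its log2 fold change was 0.55 ± 0.17 (SE), adjusted p = 0.0235 (edgeR), a call lost without E0del/+ mouse 1, 2 or 3 or WT mouse 1. Uqcr10, another small subunit, had the smallest, -0.07 ± 0.18 (SE), adjusted p = 0.748 with TMM (edgeR), which turned to 0.59 with total counts.

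Complex IV reduces oxygen, and some of its subunits have a muscle and a ubiquitous gene. The RefSeq promoter windows of the Cox7a and Cox8 pairs, 250 bases before to 50 after the start on GRCm38.p6, are shown because the share of the muscle form differed between tissues in opposite directions in these pairs. The windows lie at chr7:30183921-30184220 (plus strand), chr9:79759804-79760103 (minus), chr7:140900397-140900696 (minus) and chr19:7217567-7217866 (minus). Capitals mark matches on either strand to AAGGTCA (estrogen-related receptor half-site), TGCGCA (NRF1 core), CCGGAAG (ETS) or CAGCTG (E-box).
Cox7a1: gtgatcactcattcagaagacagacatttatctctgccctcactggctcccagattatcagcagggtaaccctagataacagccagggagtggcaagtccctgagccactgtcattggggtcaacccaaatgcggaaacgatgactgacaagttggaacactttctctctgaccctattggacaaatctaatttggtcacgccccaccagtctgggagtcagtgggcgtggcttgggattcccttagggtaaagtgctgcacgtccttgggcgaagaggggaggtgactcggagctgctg
Cox7a2: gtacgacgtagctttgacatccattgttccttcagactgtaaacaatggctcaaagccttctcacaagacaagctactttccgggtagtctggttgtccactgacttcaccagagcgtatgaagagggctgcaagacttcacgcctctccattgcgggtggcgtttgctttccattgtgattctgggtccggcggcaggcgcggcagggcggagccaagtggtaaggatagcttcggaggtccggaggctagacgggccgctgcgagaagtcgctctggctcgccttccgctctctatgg
Cox8b: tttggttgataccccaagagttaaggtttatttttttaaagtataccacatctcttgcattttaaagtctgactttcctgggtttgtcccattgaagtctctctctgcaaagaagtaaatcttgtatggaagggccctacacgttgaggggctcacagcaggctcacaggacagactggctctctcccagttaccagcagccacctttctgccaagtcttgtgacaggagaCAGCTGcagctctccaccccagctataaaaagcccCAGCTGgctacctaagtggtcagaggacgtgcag
Cox8a: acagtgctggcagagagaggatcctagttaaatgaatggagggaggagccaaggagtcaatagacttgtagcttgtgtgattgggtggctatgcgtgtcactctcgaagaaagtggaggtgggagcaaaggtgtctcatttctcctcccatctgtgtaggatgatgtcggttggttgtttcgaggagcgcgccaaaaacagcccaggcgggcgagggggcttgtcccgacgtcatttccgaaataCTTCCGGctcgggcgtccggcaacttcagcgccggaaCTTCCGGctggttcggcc
The Cox8b window held 2 E-box matches and the Cox8a window 2 ETS matches in reverse orientation, with 0 overlapping matches, and the Cox7a windows held none of the 4 motifs. CpG pairs numbered 7 in Cox7a1, 20 in Cox7a2, 2 in Cox8b and 19 in Cox8a. RefSeq windows matched 69 of the 85 members, of which 8 (11.6%) held the receptor half-site, 18 (26.1%) the NRF1 core, 16 (23.2%) the ETS motif and 6 (8.7%) the E-box. Over all 32851 windows the shares were 4.72%, 7.76%, 8.86% and 16.3%. The member shares count genes with a match in any of their windows, whereas the latter count single windows. The units differ, so these shares are not like for like and do not measure enrichment. A match is a description, not a site or a cause, and no match says only that these letters are not in the window.

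Of the Cox7a pair, Cox7a1 is the heart and muscle form and Cox7a2 the form found in most tissues. Cox7a1 was at 186 and 137 in WT LV and 192, 281 and 188 in E0del/+ LV in CPM, and at 43.4 and 58.1 in WT SkM and 43.9, 39.6 and 50.0 in E0del/+ SkM. Cox7a2 was at 85.0 and 61.2 in WT LV and 88.1, 128 and 80.7 in E0del/+ LV, and at 33.7 and 44.6 in WT SkM and 30.3, 28.4 and 33.1 in E0del/+ SkM. Both were higher in CPM in every LV library than in any SkM library, but on TMM sizes Cox7a2 was lower in LV in WT mouse 2. Their edgeR log2 fold changes of LV over SkM were 1.38 ± 0.20 (SE), adjusted p = 0.000549 for Cox7a1 and 0.70 ± 0.21 (SE), adjusted p = 0.0191 for Cox7a2. By RPKM, the share of Cox7a1 in the pair was 81.8% and 82.2% in WT LV and 81.8%, 81.8% and 82.7% in E0del/+ LV, and 72.6% and 72.9% in WT SkM and 74.9%, 74.1% and 75.7% in E0del/+ SkM. It averaged 82.1% ± 0.388 (SD, n = 5) in LV and 74.0% ± 1.30 in SkM. The muscle share was higher in LV in 5 of 5 mice, by 8.05 percentage points ± 1.15 (SD), and the ranges did not overlap. The Cox7a2 call was lost without E0del/+ mouse 1 or 2 or WT mouse 1.

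Of the Cox8 pair, Cox8b is the muscle form and Cox8a the ubiquitous form. Cox8b was at 114 and 96.5 in WT LV and 120.5, 185 and 120.0 in E0del/+ LV in CPM, and at 55.3 and 74.2 in WT SkM and 55.9, 52.2 and 60.5 in E0del/+ SkM. Cox8a was at 46.0 and 32.0 in WT LV and 41.9, 58.3 and 44.1 in E0del/+ LV, and at 17.9 and 7.95 in WT SkM and 9.54, 7.13 and 14.5 in E0del/+ SkM. Both lay higher in CPM in every LV library, but on TMM sizes Cox8b was lower in LV in WT mouse 2, and in SkM Cox8a was highest in WT replicate 1 and E0del/+ replicate 3. Their edgeR log2 fold changes of LV over SkM were 0.41 ± 0.17 (SE), adjusted p = 0.0711 for Cox8b and 1.36 ± 0.19 (SE), adjusted p = 0.000475 for Cox8a. By RPKM, the share of Cox8b in the pair was 78.8% and 81.9% in WT LV and 81.2%, 82.7% and 80.3% in E0del/+ LV, and 82.2% and 93.3% in WT SkM and 89.8%, 91.7% and 86.2% in E0del/+ SkM. It averaged 81.0% ± 1.47 (SD, n = 5) in LV and 88.7% ± 4.45 in SkM. Here the muscle share was lower in LV in 5 of 5 mice, with a mean LV minus SkM difference of -7.67 percentage points ± 3.10 (SD), although the SkM libraries ranged widely and WT SkM replicate 1 lay within the LV range.

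Of the Cox6a pair, Cox6a2 is the muscle form and Cox6a1 the ubiquitous form. Cox6a2 was at 406 and 332 in WT LV and 441, 639 and 449.9 in E0del/+ LV in CPM, and at 148 and 167 in WT SkM and 162, 167 and 142 in E0del/+ SkM. Cox6a1 was at 35.4 and 30.3 in WT LV and 32.9, 47.3 and 29.8 in E0del/+ LV, and at 15.2 and 4.80 in WT SkM and 6.09, 5.53 and 11.8 in E0del/+ SkM. Both were higher in every LV library than in any SkM library, and in SkM Cox6a1 was again highest in WT replicate 1 and E0del/+ replicate 3. Their edgeR log2 fold changes of LV over SkM were 0.83 ± 0.15 (SE), adjusted p = 0.00188 for Cox6a2 and 1.47 ± 0.25 (SE), adjusted p = 0.00144 for Cox6a1. By RPKM, the share of Cox6a2 in the pair was 90.3% and 89.8% in WT LV and 91.5%, 91.6% and 92.4% in E0del/+ LV, and 88.8% and 96.6% in WT SkM and 95.6%, 96.1% and 90.7% in E0del/+ SkM. It averaged 91.1% ± 1.06 (SD, n = 5) in LV and 93.5% ± 3.55 in SkM. The share was higher in LV in 2 of 5 mice, and the mean difference of -2.39 percentage points was smaller than its SD of 3.80. Exons of Cox6a2 overlap those of Itgad, and reads shared by both could not be told apart.

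The same 2 SkM libraries were high in 5 white adipocyte genes, led by Cfd, which summed to 1025 and 7.84 in WT SkM and 253, 136 and 1037 in E0del/+ SkM in CPM. In LV that sum was 6.76 and 245 in WT LV and 21.0, 16.6 and 1.57 in E0del/+ LV. Endothelial genes, 5 led by Cdh5, summed to 201 and 98.8 in WT SkM and 208, 196 and 167 in E0del/+ SkM, and to 1276 and 891 in WT LV and 1167, 1769 and 1022 in E0del/+ LV. Of these, 5 of 5 were called higher in LV, with a median log2 fold change of 1.99 (edgeR with TMM). In that fit 32.1% of all genes were called higher in LV and 30.0% lower. The 5 fibroblast genes, led by Dcn, summed to 255 and 93.5 in WT SkM and 118, 211 and 302 in E0del/+ SkM, and to 945 and 759.6 in WT LV and 815, 1097 and 619 in E0del/+ LV, and 5 of 5 were called higher in LV, with a median log2 fold change of 1.69 (edgeR with TMM). The 5 leukocyte genes, led by Ptprc in the SkM mean and Csf1r in the LV mean, summed to 56.3 and 7.61 in WT SkM and 94.1, 20.5 and 19.8 in E0del/+ SkM, and to 75.7 and 50.9 in WT LV and 77.7, 81.2 and 57.6 in E0del/+ LV, with 3 called higher in LV and 1 lower. The 4 Schwann cell genes, led by Mbp in the SkM mean, summed to 95.4 and 53.8 in WT SkM and 17.8, 18.1 and 53.1 in E0del/+ SkM, and to 20.8 and 28.5 in WT LV and 20.8, 33.4 and 15.0 in E0del/+ LV, with 2 called lower in LV. DESeq2 was not counted for these lists. 0 markers on these lists were at 0 in all SkM libraries, and their part in the Cox6a1 and Cox8a levels, or in other members, was not tested. Among the other lists, 6 slow-fibre genes, led by Myh7 in SkM, summed to 1120.1 and 114 in WT SkM and 1548, 2058 and 237 in E0del/+ SkM, 5 atrial genes led by Nr2f2 to 18.5 and 19.0 in WT LV and 22.6, 32.9 and 17.0 in E0del/+ LV, 6 erythroid genes led by Beta-s to 129 and 125 in WT LV and 161, 158 and 142 in E0del/+ LV, and 5 brown adipocyte genes to 317 and 248 in WT LV and 328, 486 and 325 in E0del/+ LV, a list that holds the members Cox7a1, its most abundant gene in LV, and Cox8b. Hba-a1, Hba-a2, Hbb-b1 and Hbb-b2 were at 0 in all libraries, and the atrial gene Bmp10 was at 0 in all SkM libraries.

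**Figure D4:**
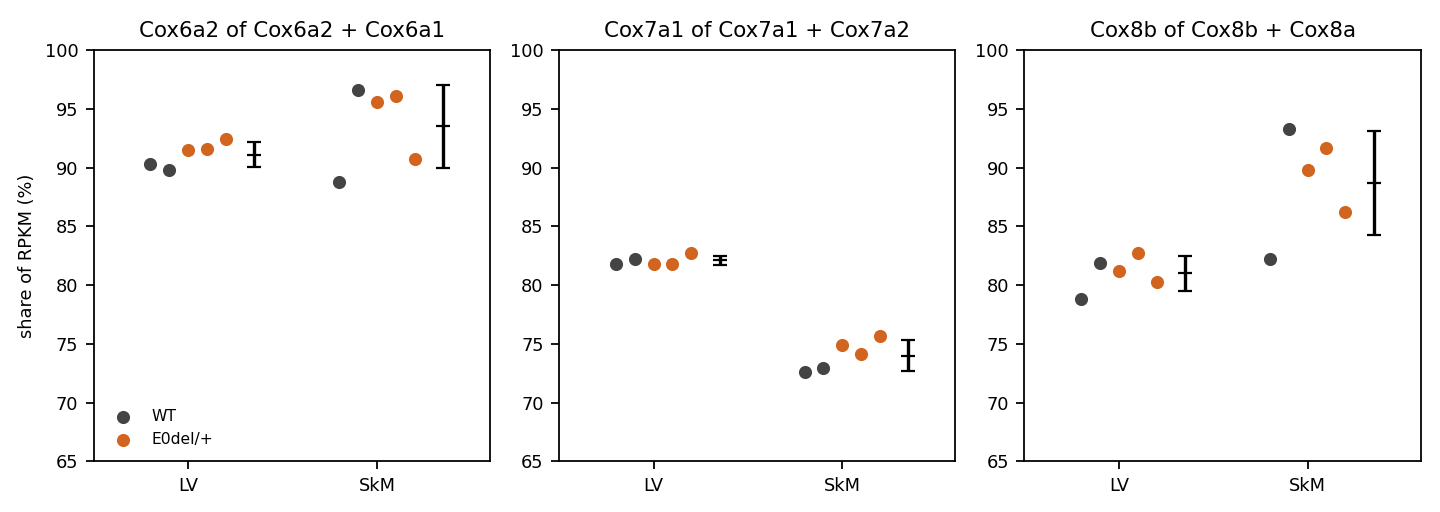
Points are the share of the muscle form in the summed RPKM of each complex IV isoform pair, in percent, by library (WT dark, E0del/+ orange), with mean ± SD of the 5 libraries of a tissue beside them and the axis not starting at 0. The Cox7a1 share is higher in LV, the Cox8b share lower, and the Cox6a2 ranges overlap.

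The largest fold changes were those of low-abundance isoforms. Cox4i2, the isoform of subunit 4 known for its oxygen-dependent expression, was at 14.1 and 7.02 in WT LV and 10.9, 17.1 and 7.85 in E0del/+ LV in CPM, and at 1.30 and 0.629 in WT SkM and 1.17, 1.93 and 0.704 in E0del/+ SkM. Its log2 fold change of LV over SkM was 2.67 ± 0.20 (SE), adjusted p = 2.79e-05 (edgeR), and it was 15.7 ± 5.82 RPKM (SD, n = 5) in LV beside 824 ± 198 for the main form, Cox4i1. Ndufa4l2, a hypoxia-inducible relative of Ndufa4, was at 12.4 and 5.31 in WT LV and 11.8, 15.3 and 8.29 in E0del/+ LV, and at 1.80 and 1.03 in WT SkM and 0.984, 2.27 and 1.06 in E0del/+ SkM, with a log2 fold change of 2.22 ± 0.25 (SE), adjusted p = 0.000168 (edgeR). Both were low in SkM and higher in every LV library. Exons of Ndufa4l2 overlap those of Shmt2. The summed CPM of 9 pericyte and smooth muscle genes, led by Abcc9 and listed after the data were seen, was 1841 and 1263 in WT LV and 1463, 1579 and 1232 in E0del/+ LV, and 720.5 and 434 in WT SkM and 638, 657 and 609 in E0del/+ SkM. Their part in these values was not tested.

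Ndufa4, now placed in complex IV, and Cox4i1 were the most abundant members of the complex per length, with 827 ± 169.8 and 824 ± 198 RPKM in LV (SD, n = 5). Cox4i1 rose in LV with a log2 fold change of 0.89 ± 0.21 (SE), adjusted p = 0.00670 (edgeR), and Ndufa4, at 0.26 ± 0.20 (SE), adjusted p = 0.290 (edgeR), did not pass. Of the other tested members, Cox5b (0.73 ± 0.19), Cox7b (0.65 ± 0.18), Cox6b1 (0.61 ± 0.17) and Cox6c (0.51 ± 0.19) were called higher in LV (log2 fold change ± SE), of which Cox7b lost the call without E0del/+ mouse 1 and Cox6c without E0del/+ mouse 1, 2 or 3 or WT mouse 1. Cox5a (0.20 ± 0.17), the complex's smallest change, Cox7c (0.28 ± 0.14) and Cox7a2l (0.27 ± 0.16), a supercomplex factor, did not pass.

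Too few counts to test were found for Cox6b2 (19 counts over all libraries), Cox7b2 (8) and Cox8c, all of complex IV, known from testis, and Ndufs5 of complex I. Cox8c had 0 counts in every library, which allows at most 0.272 CPM in the shallowest one. Ndufs5 was also at 0 throughout, and its exons are shared with the gene model BC002163, which held 176 to 369 counts a library, so its level was not measured. The 81 tested members are those with enough counts and are not all 85.

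Complex V is the ATP synthase. The beta subunit gene Atp5b, which carries the catalytic sites, was the most abundant member of all per length, with 2850.0 ± 255 RPKM (SD, n = 5) in LV and 1286 ± 61.9 in SkM. Its CPM was 5331 and 4575 in WT LV and 5620.2, 5844 and 5405 in E0del/+ LV, and 2313 and 2584 in WT SkM and 2325, 2373 and 2489.5 in E0del/+ SkM. The CPM ranges did not overlap, yet the TMM log2 fold changes of Atp5b (0.48 ± 0.22, adjusted p = 0.0921), the alpha subunit Atp5a1 (0.56 ± 0.22, adjusted p = 0.0599) and the rotor gamma subunit Atp5c1 (0.36 ± 0.17, adjusted p = 0.103) did not pass in edgeR. Of the 12 alternative settings, Atp5b and Atp5a1 passed in 7 and Atp5c1 in 5. Without WT mouse 2 all 3 passed in the same test, at 0.57, 0.65 and 0.50. Per length, Atp5a1 was next, with 1784 ± 175 RPKM (SD, n = 5) in LV and 766 ± 70.8 in SkM.

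Atp5h, which encodes subunit d of the peripheral stalk, had the largest change of the complex. It was at 278 and 221 in WT LV and 277, 425 and 281 in E0del/+ LV in CPM, and at 83.6 and 97.0 in WT SkM and 81.4, 75.0 and 80.0 in E0del/+ SkM, and its edgeR log2 fold change was 1.14 ± 0.17 (SE), adjusted p = 0.000622. The genes Atp5g1, Atp5g2 and Atp5g3 encode the same mature c subunit of the membrane ring. Atp5g1 and Atp5g3 rose in LV, with log2 fold changes of 0.97 ± 0.18 (SE), adjusted p = 0.00226 and 0.87 ± 0.18 (SE), adjusted p = 0.00359 (edgeR), whereas Atp5g2, at -0.24 ± 0.13 (SE), adjusted p = 0.142 with TMM and 0.42 with total counts, did not pass with TMM. Per length, Atp5g2 was the lowest of the 3, with 72.7 ± 9.46 RPKM (SD, n = 5) in LV beside 1084 ± 218 for Atp5g1. Atp5e, the epsilon subunit of the rotor stalk, had the smallest change, -0.35 ± 0.17 (SE), adjusted p = 0.0985 with TMM (edgeR) and 0.31 with total counts.

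Other genes of the pathway were counted from lists of subunits outside the symbol rule, assembly factors, regulators, the citric acid cycle, carriers and mitochondrial ribosome proteins. Of 12 further subunits and electron carriers, 9 were called higher in LV and 1 lower, against 32.1% and 30.0% of all genes, with Nnt, the proton-pumping transhydrogenase, at 2.90 ± 0.27 (SE, log2 scale) and Higd2a, a complex IV factor, at -0.46 ± 0.12. Of 47 assembly factors tested, 6 were higher and 16 lower, with a median of -0.14, the largest being Foxred1 at 1.05 ± 0.10 and 2310003L22Rik, the current Ndufaf5, at -1.57 ± 0.14, both acting on complex I. Of 15 regulators tested, 5 were higher and 3 lower, among them Esrrb at 2.34 ± 0.26 and the mitochondrial DNA factor Tfam at -0.91 ± 0.13. The coactivator Ppargc1a was at 0.79 ± 0.13 and the nuclear receptor Esrrg at 1.24 ± 0.19, both called, while Esrra at 0.08 ± 0.15 and Nrf1 at -0.23 ± 0.11 were not.

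Of 13 citric acid cycle genes, 3 were called higher in LV and 1 lower, where 32.1% and 30.0% of all genes were, with Ogdh, of the oxoglutarate dehydrogenase complex, at 0.96 ± 0.24 (SE, log2 scale) and the isocitrate dehydrogenase gene Idh3a at -0.63 ± 0.17. Of 8 carrier and pore genes tested, 3 were higher and 3 lower, with the ADP/ATP carrier gene Slc25a5 at 2.38 ± 0.14 and the uncoupling protein gene Ucp3 at -1.64 ± 0.36. Of 76 mitochondrial ribosome genes, 10 were higher and 14 lower, beside the same shares of all genes, from Mrps10 at -1.06 ± 0.14 to Mrpl39 at 1.25 ± 0.15. These lists are on the TMM scale. With total counts the medians of all of them were above 0, at 1.36 for further subunits, 0.53 for assembly factors and 0.52 for regulators. For the cycle, carriers and ribosome they were 0.89, 0.57 and 0.52, beside 0.68 over all genes and 1.07 over members. Calls were then 10 higher and 0 lower for further subunits, 31 and 2 for assembly factors and 11 and 0 for regulators. They were 12 and 0 for the cycle, 5 and 2 for carriers and 54 and 1 for the ribosome. Of all 13283 genes, 59.3% were called higher and 1590 genes lower on that scale. On that scale Higd2a was at 0.21 and Idh3a at 0.04, above 0, and Tfam at -0.25. In the genotype comparisons edgeR called 0 genes of these lists, and at an unadjusted p under 0.05 there were 1 further subunit and 3 assembly factors in LV, beside 4.2% of all genes, 0 in SkM, beside 0.867%, and 2 further subunits, 1 assembly factor and 5 ribosome genes in the difference of the effect between tissues, beside 3.33%. DESeq2 was not counted for these lists.

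The second comparison asked whether the heterozygous deletion went with different levels of these genes in LV. By complex, summed CPM in LV averaged 7065 in WT and 8339 in E0del/+ for complex I, 3053 and 3203 for complex II, 4236 and 4799 for complex III, 2677 and 3569.6 for complex IV and 13285 and 15313 for complex V. In CPM, WT replicate 2 was the lowest library in each, and E0del/+ replicate 2 the highest in each except complex II. On TMM sizes, E0del/+ replicate 2 was the lowest for complex II (2109, beside 2393 in WT replicate 2) and the highest for complexes I and IV alone. E0del/+ replicate 3 was then the highest for complexes II (2746), III (3967) and V (12406), and for complex V E0del/+ replicate 2 (11264) lay just below WT replicate 1 (11284). In edgeR 0 of 81 members passed, as did 0 of 13420 genes (0.0%), and DESeq2 called 0 members. At an unadjusted p under 0.05 there were 3 members in edgeR, all higher in E0del/+, and 10 in DESeq2, where 4.2% of all genes fell under that threshold in edgeR and 3.99% in DESeq2. The median log2 fold change was 0.27 over members and -0.01 over all genes, and leaving out each library gave 0.20 to 0.34. Of the related lists, the 76 mitochondrial ribosome genes had a median of 0.13, with 64 above 0, and the 12 further subunits 0.17, with 12 above 0. The assembly factors, regulators, citric acid cycle genes and carriers had medians of 0.02, -0.05, -0.05 and 0.02. In the same comparison the 10 ventricle genes had a median of 0.24, with 10 of 10 above 0. The 10 fast-fibre genes, high in WT replicate 2, had a median of -6.80, with 10 of 10 at an unadjusted p under 0.05. The 3 white adipocyte genes tested had a median of -3.475, with 3 of 3 at an unadjusted p under 0.05 (edgeR). The part of these lists in the member median was not tested.

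The 3 were Cox6c, Ndufa7 and Ndufa5, a complex IV subunit and a pair of complex I accessory subunits. Cox6c was at 132 and 109.7 in WT LV and 163, 239.6 and 151 in E0del/+ LV in CPM, with a log2 fold change of 0.53 ± 0.20 (SE), adjusted p = 0.997 (edgeR). Ndufa7 was at 72.8 and 52.5 in WT LV and 82.0, 112 and 76.3 in E0del/+ LV, with 0.45 ± 0.18 (SE), adjusted p = 0.997 (edgeR), and Ndufa5 was at 79.9 and 58.1 in WT LV and 87.4, 135 and 87.1 in E0del/+ LV, with 0.50 ± 0.20 (SE), adjusted p = 0.997 (edgeR). In each the E0del/+ libraries lay above both WT libraries, and replicate 2 of E0del/+ was the highest and replicate 2 of WT the lowest. Across members, Spearman's rho between this fold change and summed exon length was -0.57, a description over genes that share the same 5 libraries. The number under the unadjusted threshold was 1 without E0del/+ replicate 2 (2.68% of all genes), 0 without WT replicate 2 (0.749%), 6 without WT replicate 1 (11.6%) and 7 without E0del/+ replicate 3 (4.73%).

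The same comparison in SkM gave 0 of 81 members and 0 of 13154 genes (0.0%) in edgeR, and 0 members in DESeq2. At an unadjusted p under 0.05 there were 0 members by either tool, beside 0.867% of all genes in edgeR and 1.15% in DESeq2. The median log2 fold change of members was -0.21, beside -0.01 over all genes, and it rested on single WT libraries: it was 0.10 without WT replicate 2 and -0.46 without WT replicate 1. In the latter fit, whose lone WT library is WT replicate 2 and is assumed to vary like the E0del/+ libraries, 51 members were lower at an unadjusted p under 0.05, where 5.28% of all genes were lower at that threshold, and 0 passed adjustment in edgeR. In the same SkM comparison the 6 slow-fibre genes had a median of 1.10, with 6 of 6 above 0, the 10 ventricle genes 0.87, with 9 of 10 above 0, and the 4 Schwann cell genes -1.34, with 4 of 4 below 0, and 0 of these passed in edgeR or had an unadjusted p under 0.05. Their part in the member median was not tested. With all SkM libraries kept, the 76 mitochondrial ribosome genes had a median of -0.16, with 70 below 0, and the 12 further subunits -0.21, with 9 below 0. Medians of the assembly factors, regulators, citric acid cycle genes and carriers were -0.10, 0.075, -0.04 and -0.14. Across members, rho between the SkM fold change and summed exon length was 0.45, where for LV over SkM it was -0.02.

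The members with the smallest unadjusted p were Atp5k, subunit e of ATP synthase, and the complex I accessory genes Ndufa2 and Ndufb6. Atp5k was at 16.4 and 15.0 in WT SkM and 12.1, 11.4 and 13.1 in E0del/+ SkM in CPM, with a log2 fold change of -0.36 ± 0.15 (SE), adjusted p = 1.00 (edgeR). Ndufa2 was at 47.5 and 55.4 in WT SkM and 39.3, 39.8 and 41.9 in E0del/+ SkM, with -0.36 ± 0.17 (SE), adjusted p = 1.00 (edgeR), and Ndufb6 was at 38.1 and 45.0 in WT SkM and 32.7, 31.6 and 36.0 in E0del/+ SkM, with -0.32 ± 0.18 (SE), adjusted p = 1.00 (edgeR). In CPM the E0del/+ libraries lay below both WT libraries in each case. With the TMM sizes of all 10 libraries this held for Atp5k, while WT replicate 1, at 52.9 for Ndufa2 and 42.4 for Ndufb6, lay within the E0del/+ values, which ran from 46.3 to 53.5 and from 38.6 to 45.9. Exons of Ndufa2 overlap those of Tmco6.

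**Figure D5:**
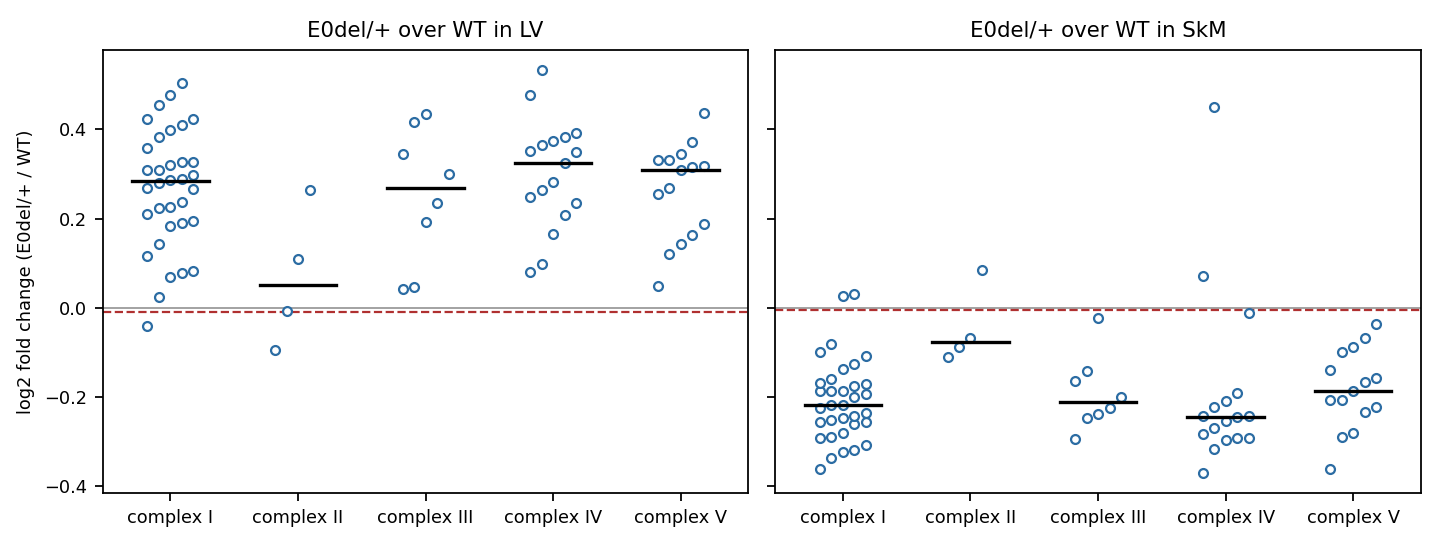
Each point is a member, with its log2 fold change of E0del/+ over WT from edgeR with TMM in LV (left) and SkM (right), black bars are medians of a complex and the dashed line is the median of all genes tested. All points are open because 0 members passed adjustment, and the member medians are 0.27 and -0.21.

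The difference of the genotype effect between tissues was tested as an interaction. Taken as SkM minus LV, 0 of 81 members and 0 of 14327 genes passed in edgeR (0.0%), and 12 members, all below 0, had an unadjusted p under 0.05, beside 3.33% of all genes. With mouse as a block, since both tissues come from the same mice, that number was 6 (1.66% of all genes), and with total counts it was 23 (3.06%). DESeq2 was not run for this term. The member median was -0.53, beside 0.00 over all genes, and it was -0.09 without WT SkM replicate 2, with 0 members under the unadjusted threshold (4.11% of all genes). That number was 58 without WT SkM replicate 1 (12.4%), 1 without WT LV replicate 2 (0.871%), and 6 without E0del/+ LV replicate 2 (2.24%). Without E0del/+ SkM replicates 1, 2 and 3 it was 1, 3 and 6 (3.16%, 2.14% and 4.12%). For the same term the 10 fast-fibre genes had a median of 6.50, with 10 of 10 at an unadjusted p under 0.05, and the 5 white adipocyte genes 4.12, with 5 of 5 above 0, and of the LV libraries both lists were highest in WT replicate 2. Their part in the member values was not tested. With all libraries kept, the 76 mitochondrial ribosome genes had a median of -0.35, with 74 below 0, and the 12 further subunits -0.40, with 10 below 0. Medians of the assembly factors, regulators, citric acid cycle genes and carriers were -0.20, 0.14, -0.05 and -0.26. Among members, the smallest unadjusted p belonged to Atp5k, Ndufa2 and Cox6c. In SkM, Cox6c was at 66.7 and 83.4 in WT SkM and 64.8, 61.6 and 65.9 in E0del/+ SkM. In LV, Atp5k was at 29.6 and 21.4 in WT LV and 29.9, 48.0 and 31.4 in E0del/+ LV, and Ndufa2 at 56.4 and 55.3 in WT LV and 66.7, 108 and 64.2 in E0del/+ LV. For Ndufa2, E0del/+ LV replicate 2 lay far above the other LV libraries. The Cox7a1 share averaged 82.0% in WT LV and 82.1% in E0del/+ LV, and 72.8% and 74.9% in SkM, where the E0del/+ libraries lay above both WT libraries. That difference was not tested.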

How the data were processed

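The authors deposited, for each library, a file of counts over genes and RPKM made from them; the submitters' notes name STAR, DESeq2 and mm10, and the counter and annotation are not given in the sources used here. The deposited counts were divided by the library's total to give CPM, and levels between genes use the deposited RPKM. Genes passing filterByExpr were tested in edgeR 4.0.16 (limma 3.58.1, R 4.3.3) by the quasi-likelihood test with TMM scaling, Benjamini-Hochberg adjustment over all genes and a threshold of 0.05, with mouse as a block for LV against SkM and no block for genotype within a tissue. DESeq2 1.42.0, other scalings, filters and blocks and the leaving out of each library were alternatives.

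The library names give both tissues of a mouse the same animal number, and the batch label equals the replicate number. Correlations of deviations from group means were 0.0287, -0.118 and 0.106 between the tissues of E0del/+ mice 1 to 3, 0.142 in both WT mice, 0.031 and -0.155 between LV libraries of batches 1 and 2, and 0.426 and 0.274 in SkM. With 2 WT mice the deviations from the WT mean are opposite, so the WT mice must share the same value. Named genes were Ttn, all Cox and Sdh genes, alpha, beta and gamma of ATP synthase, the most abundant and most and least different members of each complex, the 3 smallest unadjusted p of each genotype comparison, untested members and the most different genes of the other lists, and 1 gene that this rule names is not reported here. Members and lists were chosen with earlier results of these data known, and the mural, Y-linked and Xist lists and the fit without WT LV replicate 2 were added after seeing the data.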

Additional observations from a re-analysis of the deposited data

Results flagged for a closer look

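Summed CPM by complex, Cox isoform shares and the CPM of each named member were looked at in each tissue, 98 groups of 5 libraries, of which 6 had a library far from the others, where chance gives about 1 in 20. In LV, E0del/+ replicate 2 stood apart for Cox7c at 105 CPM (others 62.6 to 69.2), Cox8b at 185 CPM (others 96.5 to 120) and Ndufa2 at 108 CPM (others 55.3 to 66.7). In SkM, WT replicate 2 stood apart for Cox6c at 83.4 CPM (others 61.6 to 66.7) and Ndufa5 at 40.1 CPM (others 29.2 to 32.3). In SkM, E0del/+ replicate 3 was low for Sdhb at 288 CPM (others 337 to 350). These readings are on CPM. On TMM sizes that Sdhb value was 368, close to 380 in WT SkM replicate 1. For the other genes named here, the library that stood apart was also the highest of its tissue on TMM sizes.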

How the results depend on the processing

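LV against SkM called 36 members higher with TMM and 79 with total gene counts (32.1% and 59.3% of all genes), 0 lower with either, and leaving out each mouse gave 20 to 58. The median was 0.41 with TMM and 1.07 with total counts, a scale that moved the median of all genes from 0.02 to 0.68. All 11 members below 0 with TMM were above 0 with it, among them Ndufa2 (0.61), Ndufb6 (0.66) and Uqcr10 (0.59). The summed CPM ratio was 1.40 on TMM sizes, and the Cox7a1 share difference by CPM was 10.9 points. Without mouse as the replicate block the count was 41 and the median 0.38. The share of all genes called in that fit is not given here, so that count has no background beside it.

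Of members at an unadjusted p under 0.05, with shares of all genes in brackets, E0del/+ against WT in LV had 5 with DESeq2 size factors (4.2%), 10 with DESeq2 (3.99%), 8 with no filter (5.5%), 1 with batch as the replicate block (4.36%) and 0 to 7 with each library left out (0.749% to 11.6%). SkM had 1 with total counts (0.768%), 1 with batch as the block (4.53%) and 0 to 51 with each library left out (0.122% to 11.8%), where the median ran from -0.46 to 0.10. For SkM minus LV there were 23 with total counts (3.06%), 6 with mouse as the replicate block (1.66%), and 0 to 58 with each library left out (0.871% to 12.4%), where the median ran from -0.79 to -0.094. With these blocks the medians were 0.29, -0.23 and -0.50, and they changed no call of members in the genotype comparisons, which stood at 0. The cause of these differences was not tested. With 2 WT mice, each genotype result rests on few libraries, and leaving out a WT library leaves 1, assumed to vary like the others.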
